A study of Solanum tuberosum with 8 samples.

Results

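The stretch of potato chromosome 4 from 6 Mb to 7 Mb held 58 of the 19664 genes that the authors tested for a difference between dormant and nondormant tuber meristems. Its members are all tested genes whose printed start lies in that interval, and a further 1668 tested genes lie on the rest of the chromosome. The stretch lists 106 genes in all, and the 48 left untested by the authors, all at low values, enter none of the counts. The interval was chosen by the frequency of its dormant-higher calls in this same comparison, so the counts and ratios given for the whole stretch describe it and test nothing. The direction was not the same along it. A series of 13 consecutive tested short loci, on 9 separate intervals, were all listed higher in dormant meristems. Of the 9 tested genes at the lower end, 8 were higher in nondormant meristems. Both sets were marked out after the values had been seen, so their directions are description too.

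Potato (Solanum tuberosum) tubers carry buds whose meristems do not grow out for some time after harvest. This dormancy is held from within the bud, abscisic acid is known to be needed for it in potato, and it ends in storage, when the buds begin to sprout. Plant genomes often carry neighbouring copies of related genes, and genes that lie side by side can share a level of expression. The deposited table gives its loci as identifiers and positions without names, and 0 of its identifiers matched the RefSeq gene table of assembly SolTub_3.0, so no role is given for any locus here and loci are called by their positions. For the same reason the labelled tissue could not be checked against marker genes.

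RNA was sequenced in 8 samples of meristems, all cut from tubers of Russet Burbank plants grown in the field. The 4 dormant samples were cut about 2 weeks after harvest in 2005, 2007, 2009 and 2010, and the 4 nondormant samples in 2006, 2008, 2010 and 2011 from tubers kept at 4 °C until sprouting was visible. Cultivar and field growth are shared by both groups, while time and cold storage differ together with dormancy and cannot be told apart from it. Values are the authors' single value per gene and group, read as FPKM (fragments counted relative to transcript length and to all mapped fragments), with no SD because there is no column per sample, and with unknown read depth. A gene is called here when its deposited q-value (the p-value adjusted for the number of genes tested) is 0.05 or less, and q stands for that value below. Values given as during dormancy are those of the dormant group, and values after it those of the nondormant group. In such bulk samples fewer cells of a type and less RNA per cell cannot be told apart.

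Of the 58 genes of the stretch, the authors' deposited table called 10 higher in dormant and 4 higher in nondormant meristems. Among all tested genes 3.75% were called dormant-higher, against 17.2% of the members. For nondormant-higher calls the share of all tested genes was 7.17%, close to the 6.90% of the members. With a stricter q of 0.01 or less, 7 members were dormant-higher and 1 was nondormant-higher, where 1.56% of all tested genes were dormant-higher and 3.59% nondormant-higher. On the rest of chromosome 4, 3.78% of the tested genes were dormant-higher and 7.85% nondormant-higher. The stretch therefore exceeded its chromosome in dormant-higher calls, which is what chose it, and not in nondormant-higher ones.

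Both directions were unevenly spread along the stretch. Of the 20 tested genes that start below 6.5 Mb, the authors' deposited table called 4 nondormant-higher (20%, beside 7.17% of all tested genes) and 1 dormant-higher (5%, beside 3.75%). Of the 38 from 6.5 Mb on, it called 9 dormant-higher (23.7%) and 0 nondormant-higher. The folds of the dormant-higher calls ran from 2.35 to 7.13, and those of the nondormant-higher calls from 2.40 to 5.44. The other 44 members were not called, and 26 of them differed by no more than 2-fold.

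**Figure D1:**
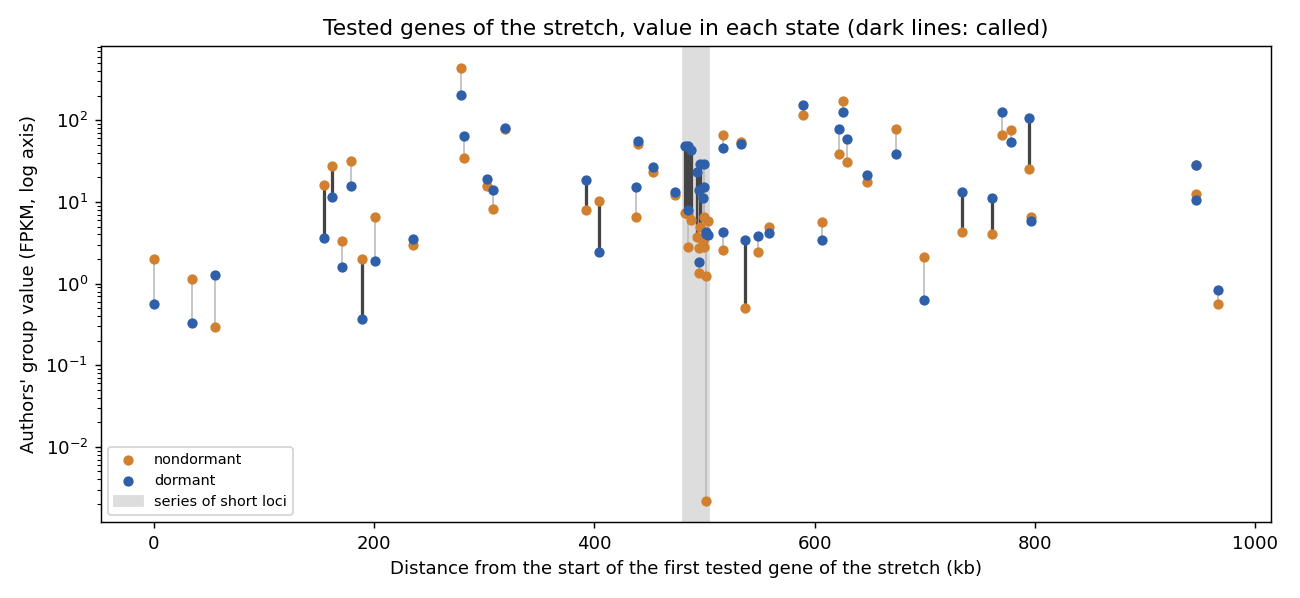
Authors' value of each of the 58 tested genes (FPKM, log axis) in nondormant (orange) and dormant (blue) meristems, against the distance in kb of its start from that of the first tested gene; a line joins both values of a gene and is dark where the gene was called. The grey band marks 13 short loci that are all higher in dormant meristems, and the called genes at the lower end are higher in nondormant meristems.

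The centre of the stretch was a dense series of short loci. From 6511865 to 6532105, within 20.2 kb, 13 consecutive tested genes each had a printed span of 534 to 647 bp, against a median span of 3551 bp for the rest of chromosome 4. They lie on 9 separate intervals, since 8 of the 13 share their printed interval with another row of the series, and the gaps between intervals ran from 627 to 5586 bp. Each of the 13 was listed higher in dormant than in nondormant meristems, and 9 differed by at least 4-fold, or 8 without a row whose nondormant value is near 0. The series was singled out after its values had been seen, by the rule of the longest unbroken run of tested members under 700 bp.

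Read from its lower end, the called loci of the series were alike in the size of the difference and not in level. The first, from 6511865 to 6512506, had 48.2 FPKM during dormancy against 7.24 FPKM after it in the authors' deposited table (q = 0.00179, 6.65-fold, log2 ratio 2.73). PGSC0003DMG402023580, from 6514408 to 6515000, stood at 48.5 FPKM during dormancy against 7.07 FPKM after it in the authors' deposited table (q = 0.00179, 6.86-fold, log2 ratio 2.78). These loci had nearly equal levels in both states, and the next interval was close to them. PGSC0003DMG402023630, from 6517148 to 6517699, had 43.0 FPKM during dormancy against 6.03 FPKM after it in the authors' deposited table, the largest fold among the called members (q = 0.00179, 7.13-fold, log2 ratio 2.83). Farther on, the levels were lower in both states. The locus from 6523286 to 6523925 had 23.3 FPKM during dormancy against 3.76 FPKM after it in the authors' deposited table (q = 0.00671, 6.19-fold). For the locus from 6525771 to 6526415 the authors' deposited table gave 29.3 FPKM during dormancy against 4.98 FPKM after it (q = 0.00179, 5.89-fold). All 5 called loci of the series thus differed by 5.89-fold to 7.13-fold, although their dormant values ran from 23.3 to 48.5 FPKM. That range covers called loci only. PGSC0003DMG402023580 shares its interval with an uncalled row, and both rows summed differed 5.73-fold. Over all 9 intervals of the series, with shared rows summed, the folds ran from 3.34 to 7.13.

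The other 8 loci of the series were not called, and 7 of these share their interval with another row. Of the 5 loci with an interval of their own, 4 were called, and of the 8 that share one, 1 was called. In the authors' deposited table the uncalled locus with its own interval, from 6528049 to 6528662, had 11.3 FPKM during dormancy against 3.37 FPKM after it (q = 0.107, 3.34-fold). On the interval from 6529293 to 6529939 the authors' deposited table listed 29.0 FPKM during dormancy against 6.61 FPKM after it for a first row (q = 0.0747), and 15.3 FPKM against 2.84 FPKM for another (q = 0.418). Both rows were more than 4-fold higher in dormant meristems without a call. The interval from 6524553 to 6525117 had a row with 14.0 FPKM during dormancy against 2.77 FPKM after it in the authors' deposited table (q = 0.0616), and a row with 1.85 FPKM against 1.34 FPKM (q = 0.944). The latter had the smallest ratio of the series, 1.38-fold. The other row on the interval of PGSC0003DMG402023580 had 7.95 FPKM during dormancy against 2.79 FPKM after it in the authors' deposited table (q = 0.630). At the upper end, from 6531572 to 6532105, the authors' deposited table had 4.04 FPKM during dormancy against 1.24 FPKM after it for a first row (q = 0.158). The other row of that interval was listed at 4.34 FPKM during dormancy against 0.00220 FPKM after it in the authors' deposited table (q = 0.519), and its fold is not given because it rests on a value near 0.

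The sources used here do not say how the authors' program divided reads between rows of the same interval, so values of such rows are less certain than those of loci with an interval of their own. With the rows of an interval summed, the dormant values of the 9 intervals exceeded the nondormant ones 3.34-fold to 7.13-fold, with a median of 5.89-fold, and 7 of them by at least 4-fold. Whether the loci of the series resemble each other in sequence, and so could share reads between intervals, was not tested. Within the same 20.2 kb the table also holds 3 untested rows on 2 intervals, all 3 listed at 0 in both states. A listed 0 can be a failed estimate, and nothing is read from these rows.

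**Figure D2:**
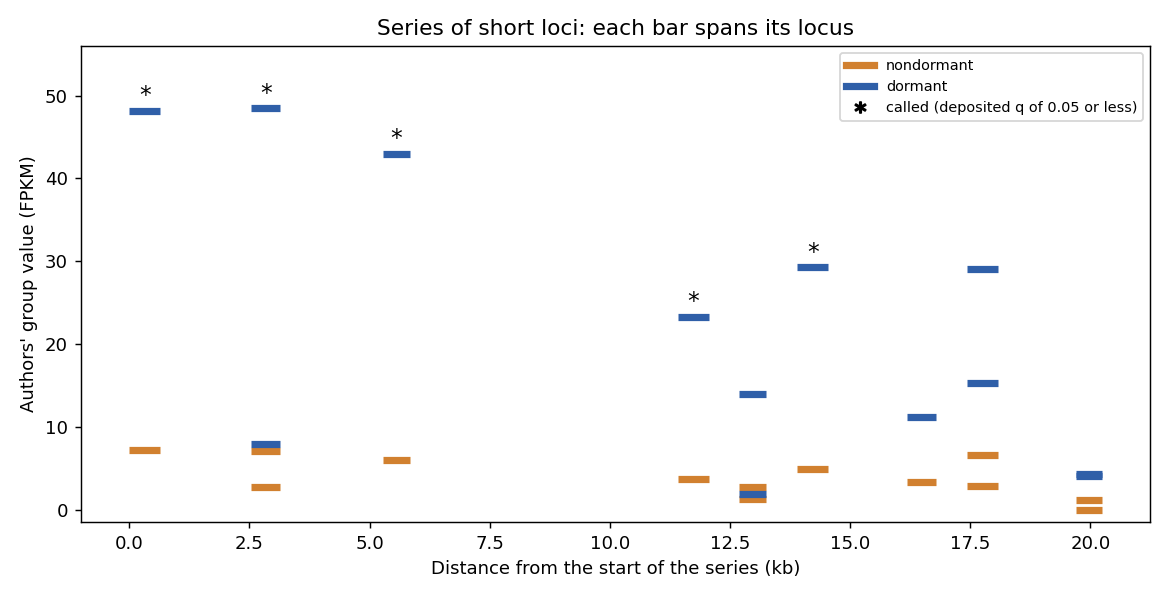
Authors' FPKM values in nondormant (orange) and dormant (blue) meristems of the 13 short loci, drawn as bars that span each locus on an axis of distance in kb from the start of the series; asterisks mark called loci, and bars of rows that share an interval lie above each other. The called loci on the first 3 intervals reach 43.0 to 48.5 FPKM in dormant meristems, and the 5 called loci differ by 5.89-fold to 7.13-fold.

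Summed over the series, the values were 280.0 FPKM during dormancy against 50.1 FPKM after it, a ratio of 5.59. The series held 3.02% of the summed nondormant and 15.6% of the summed dormant FPKM of the stretch. Over all 58 members the sums were 1793 FPKM during dormancy against 1657 FPKM after it, a ratio of 1.08, against 0.976 on the rest of chromosome 4. The gain of 230 FPKM in the series exceeded that of the whole stretch, 136 FPKM, because the members outside it summed to less in dormant than in nondormant meristems (ratio 0.942). That lower sum depends on a single uncalled locus outside the series, from 6308556 to 6310116, which alone was 236 FPKM lower in dormant meristems.

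Ratios of dormant over nondormant values had a median of 0.35 on the log2 scale in the stretch, with quartiles of -0.52 and 1.58. On the rest of chromosome 4 the median was 0.06 and the quartiles were -0.51 and 0.48. The distributions thus differed mainly in their upper part. A dormant value at least 4 times the nondormant value was found in 12 members (20.7%), which include the row with a nondormant value near 0, against 1.74% of the genes on the rest of the chromosome. Of these 12, 9 are rows of the series, and 5 of the 12 were not called. Outside the series 3 of 45 members (6.67%) reached that ratio. Without the series, the median of the other 45 members was 0.022, and 23 of them (51.1%) were higher in dormant meristems, against 53.3% on the rest of chromosome 4. These 45 members held 5 dormant-higher calls (11.1%, beside 3.75% of all tested genes). They also held 4 nondormant-higher calls (8.89%, near the 7.17% of all tested genes). Their quartiles of -1.01 and 0.77 were farther apart than those of the rest of the chromosome.

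**Figure D3:**
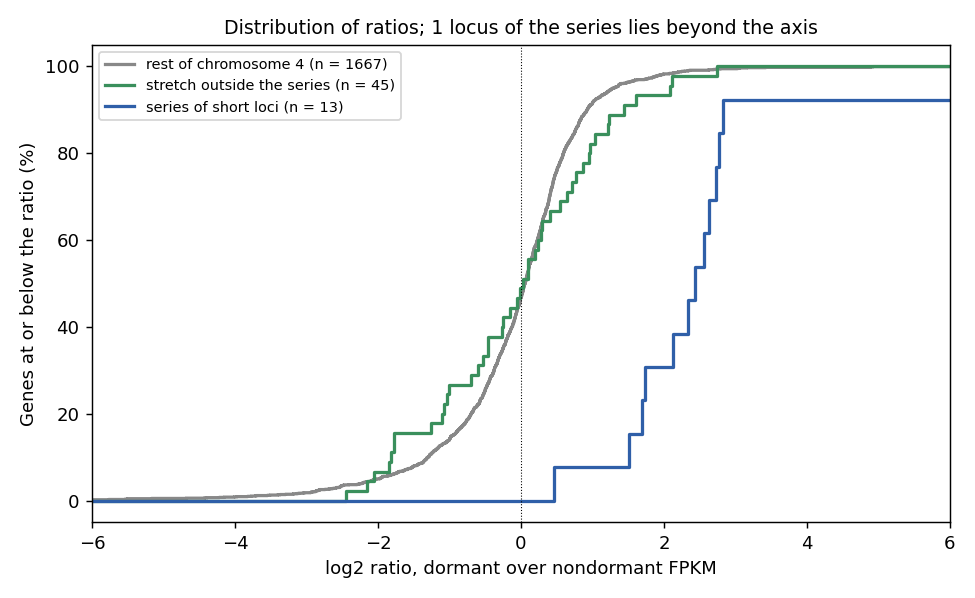
Cumulative share of genes (percent) against the log2 ratio of dormant over nondormant FPKM for the series of 13 short loci (blue), the other 45 members of the stretch (green) and the 1667 tested genes with a ratio on the rest of chromosome 4 (grey). The series lies wholly to the right of 0, with a median of 2.43, while the other members have a median of 0.022 beside 0.06 on the rest of the chromosome.

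Short loci elsewhere on the chromosome were listed higher about as often in either state, but more of them were called nondormant-higher than dormant-higher. Outside the stretch, 110 tested genes of chromosome 4 span less than 700 bp, and 53 of them (48.2%) were higher in dormant meristems. The authors' deposited table called 3 of the 110 (2.73%) higher in dormant and 13 (11.8%) higher in nondormant meristems. Among all tested genes these shares were 3.75% and 7.17%. Differences of at least 4-fold numbered 3 dormant-higher and 14 nondormant-higher, and the median log2 ratio of the 110 was -0.06. The mean of both values had a median of 9.09 FPKM in the series, 11.3 FPKM in the stretch and 11.2 FPKM on the rest of chromosome 4. Taken by state, the levels were less alike. The series had medians of 15.3 FPKM during dormancy and 3.37 FPKM after it, against 10.6 and 11.2 FPKM on the rest of chromosome 4.

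Beyond the series, 5 loci were called higher in dormant meristems. Below it, the locus from 6421864 to 6430126 had 18.5 FPKM during dormancy against 7.87 FPKM after it in the authors' deposited table (q = 0.0223, 2.35-fold). Above it, the locus from 6566543 to 6572799 had 3.39 FPKM during dormancy against 0.505 FPKM after it in the authors' deposited table (q = 0.00179, 6.73-fold). Its level was the lowest among the dormant-higher calls, and it shares its interval with an untested row. Its log2 ratio of 2.75 became 1.55 with a pseudocount of 1 and 1.73 after quantile normalization. The locus from 6763532 to 6764645 had 13.2 FPKM during dormancy against 4.33 FPKM after it in the authors' deposited table (q = 0.0290, 3.05-fold). A similar difference was listed for the locus from 6790880 to 6792294, with 11.1 FPKM during dormancy against 4.06 FPKM after it in the authors' deposited table (q = 0.0334, 2.73-fold). The most abundant dormant-higher call lay from 6824114 to 6825943, with 106 FPKM during dormancy against 25.1 FPKM after it in the authors' deposited table (q = 0.00498, 4.22-fold, log2 ratio 2.08).

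At the lower end of the stretch the direction was the opposite. Of the first 9 tested genes, 8 were higher in nondormant meristems. The authors called 3 of these, which is 33.3% of the 9, beside 7.17% nondormant-higher calls among all tested genes. Together the 9 summed to 36.9 FPKM during dormancy against 90.7 FPKM after it. The upper border of these 9 was set after the values had been seen. A first call, from 6184633 to 6190160, had 3.58 FPKM during dormancy against 16.0 FPKM after it in the authors' deposited table (q = 0.00306, 4.46-fold). Its neighbour PGSC0003DMG401023644, from 6191540 to 6199980, had 11.6 FPKM during dormancy against 27.8 FPKM after it in the authors' deposited table (q = 0.0223, 2.40-fold, log2 ratio -1.26). The third call of this end, from 6218864 to 6222406, stood at 0.372 FPKM during dormancy against 2.02 FPKM after it in the authors' deposited table (q = 0.0155, 5.44-fold). The fourth nondormant-higher call of the stretch lay from 6434121 to 6435003, with 2.47 FPKM during dormancy against 10.3 FPKM after it in the authors' deposited table (q = 0.0124, 4.16-fold). That locus begins 3.99 kb beyond the dormant-higher locus at 6421864 to 6430126, so neighbouring loci were called in opposite directions.

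The single gene of the lower end with a higher dormant value lay from 6085283 to 6086928, at 1.28 FPKM during dormancy against 0.296 FPKM after it in the authors' deposited table (q = 0.0919, not called). Among uncalled members higher in nondormant meristems, the largest ratios also lay there. For the locus from 6029872 to 6030581 the authors' deposited table had 0.561 FPKM during dormancy against 2.02 FPKM after it (q = 0.144, 3.60-fold). The locus from 6064124 to 6068582 had 0.326 FPKM during dormancy against 1.16 FPKM after it in the authors' deposited table (q = 0.0929, 3.54-fold).

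The most abundant members were not called. The highest mean belonged to the locus from 6308556 to 6310116, with 206 FPKM during dormancy against 443 FPKM after it in the authors' deposited table (q = 0.0580, 2.14-fold). The difference at this locus, 236 FPKM, was larger than that of the whole series, and without it the ratio of sums was 1.31. Next in level, the locus from 6655320 to 6656138 had 125 FPKM during dormancy against 171 FPKM after it in the authors' deposited table (q = 0.494, 1.37-fold). The third, from 6618826 to 6625085, had 154 FPKM during dormancy against 116 FPKM after it in the authors' deposited table (q = 0.551, 1.33-fold).

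Among bins of 1 Mb on chromosome 4 with at least 20 tested genes, of which there were 32, the stretch had the highest share of dormant-higher calls. The other bins ran from 0% to 12.5%, with a median of 3.92%. This order follows from the choice of the stretch. In nondormant-higher calls it ranked 19 of 32, and in median log2 ratio 3 of 32. Its 14 tested genes under 700 bp were the most of any such bin, and 13 of them are the series. No window of the same 20.2 kb elsewhere on the chromosome, apart from those that overlap the series, held more than 6 tested genes. These counts are of rows, and the 13 rows of the series lie on 9 intervals. The window was given the width of the series, which was singled out after its values had been seen.

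**Figure D4:**
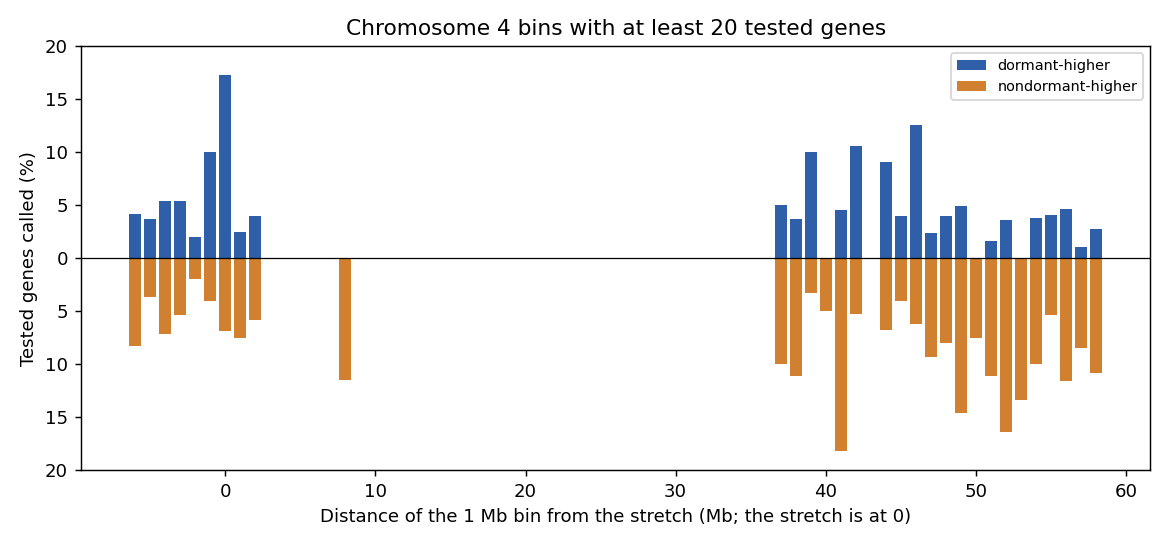
Share of tested genes called dormant-higher (blue, upward) and nondormant-higher (orange, downward), in percent, for the 32 bins of 1 Mb on chromosome 4 with at least 20 tested genes, against the distance in Mb from the stretch; bins with fewer tested genes are not drawn. The stretch at 0 reaches 17.2% dormant-higher calls, where the other bins reach at most 12.5%, and 6.90% nondormant-higher calls.

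Counting neighbours by direction alone, called or not, 17 consecutive tested genes from 6467842 to 6532105 were higher in dormant meristems, the 13 loci of the series and the 4 before them. Of these 4, none was called, and the nearest to the series, from 6503243 to 6511510, had 13.1 FPKM during dormancy against 12.3 FPKM after it in the authors' deposited table (q = 0.921). Only 354 bp separate this locus from the first locus of the series. On the other side, the next tested locus, from 6533357 to 6536052, had 3.90 FPKM during dormancy against 5.90 FPKM after it in the authors' deposited table (q = 0.566). Neither of these neighbours had a ratio like those of the called short loci. Over all chromosomes, 4 such runs had at least 17 genes, 2 of them dormant-higher, and on chromosome 4 the next longest run had 14 genes and was nondormant-higher. Rows that share an interval were counted separately in these runs, and the 13 loci of the series lie on 9 intervals. How the runs would rank with each interval counted once was not tested.

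No call was made at either edge of the stretch. The last tested gene below it, from 5986828 to 5987467, had 1.61 FPKM during dormancy against 0.661 FPKM after it in the authors' deposited table (q = 0.395), and the first inside is the locus at 6029872 given above. The last inside, from 6996042 to 6999800, had 0.825 FPKM during dormancy against 0.566 FPKM after it in the authors' deposited table (q = 0.661). Just above, the locus from 7006016 to 7010031 had 38.6 FPKM during dormancy against 23.1 FPKM after it in the authors' deposited table (q = 0.226). In the 0.5 Mb below the stretch 3 of 23 tested genes were called dormant-higher (13.04%, beside 3.75% of all tested genes) and 0 nondormant-higher. In the 0.5 Mb above it 1 of 22 was called dormant-higher (4.55%) and 3 nondormant-higher (13.64%, beside 7.17% of all tested genes). These shares rest on few calls. Of the 48 untested genes of the stretch, none was above 1.32 FPKM in either state, and 16 were listed at 0 in both.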

How the data were processed

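RNA of 4 dormant and 4 nondormant meristem samples was sequenced; groups follow the tissue label. The deposited table compares both groups gene by gene, with 1 FPKM value per group made by the authors. The unit is inferred from column names and status words that are those of Cuffdiff, since the header prints none. The sources used here do not give the aligner, build or annotation, so positions are printed as deposited. The p-value and q-value are the authors' deposited ones; the smallest p is 5e-05, reached by 5 members. Per the labels, samples of a group were collected in different years, each nondormant sample in the spring after a dormant one, and the series' design text says that both states came from the same harvests; how the authors' program used them to measure spread is not stated.

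Computed here were log2 ratios of dormant over nondormant FPKM without a pseudocount, counts, medians and sums. No test was run, because the comparison that chose the members is the only measure. Members and all rules were chosen with earlier results of these data known. Every called member is described, and identifiers are printed for up to 2 called members a direction with the largest folds at or above the median level of tested genes (11.6 FPKM). A planned limma test and marker lists could not be applied. Summaries were tested on simulated data. Scripts ran in Python 3.11.15 with pandas 2.3.3, numpy 2.4.6 and scipy 1.17.1, and plots were drawn with matplotlib 3.10.9.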

Additional observations from a re-analysis of the deposited data

How the results depend on the processing

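Dormant-higher calls in the stretch numbered 10, and 7 to 15 under other q thresholds, a level filter, without shared intervals or from 5.5 to 7.5 Mb; below 6.5 Mb there was 1, and without the series of short loci there were 5 (chosen after seeing the data). Nondormant-higher calls numbered 4, but 1 at a q of 0.01 or less, 9 at 0.1 or less, 7 from 5.5 to 7.5 Mb and 0 above 6.5 Mb. Of all tested genes, 3.75% were dormant-higher and 7.17% nondormant-higher at a q of 0.05 or less. At a q of 0.01 or less these shares were 1.56% and 3.59%. For a q of 0.1 or less they were not computed, so the counts at that threshold cannot be set against all genes. The median log2 ratio of 0.35 was 0.20 with a pseudocount of 4, 0.20 without shared intervals and 0.022 without the series. For the series, 2.43 became 2.09 and 1.499 with pseudocounts of 1 and 4, 2.13 after quantile normalization and 2.63 without shared intervals (all chosen after seeing the data). Pseudocounts shrink ratios of low values by construction; for the other settings the cause was not tested. Other alternatives moved medians by no more than 0.1 on the log2 scale and the ratio of sums by less than 1.5 times, and the share of dormant-higher values stayed from 51.1% to 62.1%. Over 5 alternatives, 0 of 70 log2 ratios of called members turned direction. In 11 of the 70 the fold, not the log2 ratio, moved by over 1.5 times, 7 of them with a pseudocount of 4. No paired analysis was possible because the table holds no column per sample; for the same reason no replicate could be left out. Depth is unknown, so limits of detection cannot be stated.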
